A study of Mus musculus with 24 samples.

Results

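The region described here runs from Rbm33 and Shh across the adjacent gene desert to Rnf32, Lmbr1, Nom1 and Mnx1 on mouse chromosome 5 (mm10, chr5:28300000-29480000, 1.18 Mb). Its members were chosen by position only, as every ChIP-seq peak of 7 deposited lists that touched this interval, which gave 74 of 368246 peaks on chromosomes 1 to 19, X and Y. Of these, 9 came from H3K27ac in WT forelimb buds, 7 from H3K27ac in Shh-/- forelimb buds, 16 from H3K4me2 in WT, 13 from H3K4me2 in Shh-/- and 10 from H3K27me3 in Shh-/-. The remaining 8 and 11 came from H3K27ac in NIH3T3 cells treated with purmorphamine or with DMSO.

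Sonic hedgehog (Shh) is the secreted ligand made by the zone of polarizing activity, a small posterior group of limb mesenchyme cells, and it patterns the digits. Its limb expression depends on a distant enhancer, the ZRS, that sits in intron 5 of the neighbouring gene Lmbr1, and loss of that element removes Shh from the limb while sparing other tissues. H3K27ac is found at active enhancers and promoters, H3K4me2 at enhancers and promoters in general, and H3K27me3 is laid down by Polycomb complexes over silenced developmental genes.

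Forelimb buds were taken at E10.5 from Swiss Webster embryos of 32 to 35 somites, with about 400000 cells per immunoprecipitation. Mutants were homozygous for a Shh null allele (tm1amc), and according to the study's methods the controls labelled wild type were littermates that included heterozygotes, with the limb buds of several embryos pooled for a sample. NIH3T3 cells, fibroblasts of mouse origin in which the Hedgehog pathway can be switched on, were held for 48 h with 400 nM of the agonist purmorphamine or with DMSO, in medium that the labels call LIF and the methods describe as low in serum, and 1000000 cells were used per immunoprecipitation. The 24 libraries comprised 14 immunoprecipitations and 10 inputs, with 2 ChIP replicates per condition. The authors called each list on both replicates together, so in these pooled lists no peak has a value per replicate, and from them no SD and no test of a difference between lists can be had. Replicate-level reads, on which the study made its own comparison of genotypes, were not analysed here. The H3K27ac antibodies of limb buds and NIH3T3 cells were different products, and an H3K27me3 list for WT limb buds was not analysed here.

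Markers were first read at promoters, taken as 2 kb before to 1 kb after a start site. Over all 21911 protein-coding genes, an H3K27ac promoter peak was listed for 43.8% in WT, 40.9% in Shh-/-, 53.1% with purmorphamine and 53.0% with DMSO, and the small marker counts are to be read beside these shares. All 8 limb mesenchyme markers and the forelimb gene Tbx5 had an H3K27ac promoter peak in both genotypes, while 0 of 2 hindlimb markers had one in WT and 1 of 2, Tbx4, had one in Shh-/-. Of 4 markers of floor plate and notochord, which are among the other embryonic sources of Shh, 1 had such a peak in WT (Foxj1) and 0 in Shh-/-. Of 5 markers of limb ectoderm and apical ridge, 0 had one in WT and 1 (Dlx5) in Shh-/-. Endothelial markers had 1 of 4 in each genotype, Cdh5 in WT and Pecam1 in Shh-/-, erythroid markers 0 of 2, neural markers 0 of 3, and muscle precursor markers 0 of 3 in WT and 1 of 3 (Pax3) in Shh-/-. Among 6 fibroblast markers, 6 had an H3K27ac promoter peak in both NIH3T3 lists and 3 in each limb list.

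Selected sequences of the region, from shared and unshared peaks, are given first, from GRCm38 (the assembly named mm10), plus strand unless stated. A set of 5 short motifs were searched on both strands: GACCACCCA for GLI proteins, ACCGGAAGT for ETS factors, CATCTG (an E-box bound by HAND2), CTCGTAAA for HOX13 proteins and AGATAA for GATA factors. None of the matches overlapped another motif. Capitals mark a match, and an absent match says only that these letters are not in the stretch. The WT H3K27ac peaks inside Lmbr1 intron 5, where the limb enhancer lies, are shown in order of position, the fourth by its central 300 bp:
WT H3K27ac peak 1, chr5:29313800-29313999: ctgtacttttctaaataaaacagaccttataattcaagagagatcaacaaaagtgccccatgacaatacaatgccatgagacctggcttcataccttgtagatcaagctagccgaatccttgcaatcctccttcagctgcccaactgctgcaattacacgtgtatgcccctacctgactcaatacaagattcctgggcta
WT H3K27ac peak 2, chr5:29314250-29314449: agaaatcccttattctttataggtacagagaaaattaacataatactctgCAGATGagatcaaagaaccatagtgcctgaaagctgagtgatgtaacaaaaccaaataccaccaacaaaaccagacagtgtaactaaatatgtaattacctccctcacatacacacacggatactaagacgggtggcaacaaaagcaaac
WT H3K27ac peak 3, chr5:29314950-29315149: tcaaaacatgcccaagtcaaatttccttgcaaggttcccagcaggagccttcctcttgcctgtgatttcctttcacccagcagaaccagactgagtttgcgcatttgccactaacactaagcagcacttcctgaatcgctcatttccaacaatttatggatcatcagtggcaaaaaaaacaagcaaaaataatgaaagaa
WT H3K27ac peak 4, chr5:29315825-29316124: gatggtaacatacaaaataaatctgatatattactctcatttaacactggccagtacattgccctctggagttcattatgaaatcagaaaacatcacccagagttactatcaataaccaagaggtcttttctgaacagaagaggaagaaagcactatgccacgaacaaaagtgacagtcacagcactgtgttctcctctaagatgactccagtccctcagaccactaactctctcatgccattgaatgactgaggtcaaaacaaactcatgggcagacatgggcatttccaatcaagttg
WT H3K27ac peak 5, chr5:29316350-29316549: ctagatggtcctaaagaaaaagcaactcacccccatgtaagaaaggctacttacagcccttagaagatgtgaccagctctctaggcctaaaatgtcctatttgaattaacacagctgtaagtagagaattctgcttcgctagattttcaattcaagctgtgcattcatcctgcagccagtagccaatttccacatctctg

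Of these 5 sequences, the second held the E-box letters CATCTG, as CAGATG on the plus strand at chr5:29314300-29314305, inside both a WT and a Shh-/- peak. The same letters occurred in the central 300 bp of 19.5% of all WT H3K27ac peaks. Across the whole 2750 bp that the 5 peaks span there were 3 such matches, with the other 2 at chr5:29314703-29314708 and chr5:29315244-29315249 between peaks, and 0 matches to the GLI, ETS, HOX13 and GATA letters. No background was taken for stretches of this length, so whether 3 matches are many was not tested. The stretch had 39.8% GC and 23 CpG.

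The next sequence is the H3K27ac peak at the Lmbr1 start that was listed in WT and not in Shh-/-, chr5:29378600-29378899:
WT-only H3K27ac peak at Lmbr1: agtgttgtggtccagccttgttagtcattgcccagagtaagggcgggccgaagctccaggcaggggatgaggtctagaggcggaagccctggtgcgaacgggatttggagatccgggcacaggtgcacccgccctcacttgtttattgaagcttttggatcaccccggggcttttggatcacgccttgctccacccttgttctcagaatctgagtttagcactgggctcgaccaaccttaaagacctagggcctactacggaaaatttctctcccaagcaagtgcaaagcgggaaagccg
It is shown with the 250 bases that precede the Lmbr1 start in the RefSeq promoter table (GRCm38, minus strand, chr5:29378391-29378640), since the peak begins inside them:
Lmbr1 promoter: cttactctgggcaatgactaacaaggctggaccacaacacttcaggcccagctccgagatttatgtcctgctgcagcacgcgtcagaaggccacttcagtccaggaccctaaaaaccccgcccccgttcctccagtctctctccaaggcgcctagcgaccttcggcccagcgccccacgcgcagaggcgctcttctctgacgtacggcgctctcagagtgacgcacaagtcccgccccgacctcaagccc
The H3K27ac peak listed in Shh-/- and not in WT at Rnf32 was the shortest sequence, chr5:29196200-29196349, in intron 1:
Shh-/- only H3K27ac peak at Rnf32: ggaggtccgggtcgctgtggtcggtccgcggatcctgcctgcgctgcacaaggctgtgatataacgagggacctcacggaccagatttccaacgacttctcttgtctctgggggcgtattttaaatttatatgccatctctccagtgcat
At Shh, the central 300 bp of the stretch that H3K4me2 peaks of both genotypes share in intron 1, chr5:28464425-28464724, was:
Shared H3K4me2 stretch in Shh: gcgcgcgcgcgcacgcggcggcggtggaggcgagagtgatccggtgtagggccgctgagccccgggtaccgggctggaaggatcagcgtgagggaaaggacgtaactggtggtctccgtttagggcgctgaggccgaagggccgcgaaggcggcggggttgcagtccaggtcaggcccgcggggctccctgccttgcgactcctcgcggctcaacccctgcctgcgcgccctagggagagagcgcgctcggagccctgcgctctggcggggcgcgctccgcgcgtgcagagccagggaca
None of these 4 sequences held any of the 5 motifs. The GC content ran from 54.7% at Rnf32 and 55.7% at the WT-only peak to 62.0% in the Lmbr1 promoter and 73.3% in the Shh intron. The RefSeq promoter table matched 2 of the 3 genes that name the region, Rnf32 and Lmbr1; Shh is named only.

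The peaks lay at the 2 ends of the region and left its middle empty. From chr5:28468400 to chr5:29195199, a stretch of 726.8 kb between the last H3K27me3 peak upstream of Shh and the first H3K27ac peak in front of Rnf32, no list had a peak. Among 169137 intervals between neighbouring peaks of the 7 lists combined, 51 were longer, 4 of them on chromosome 5, and 26 of the 51 contained no unknown base. The Shh desert also contained no unknown base, and its GC content of 43.4% was near the 42.5% of the chromosome. The median interval was 0.85 kb. Taken list by list, the peak-free stretch was shortest for WT H3K4me2 (728.2 kb) and longest for H3K27me3 (897.5 kb). The transcribed annotation of this stretch is mainly 9530036O11Rik, a long RNA gene that runs antisense to Shh.

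**Figure D1:**
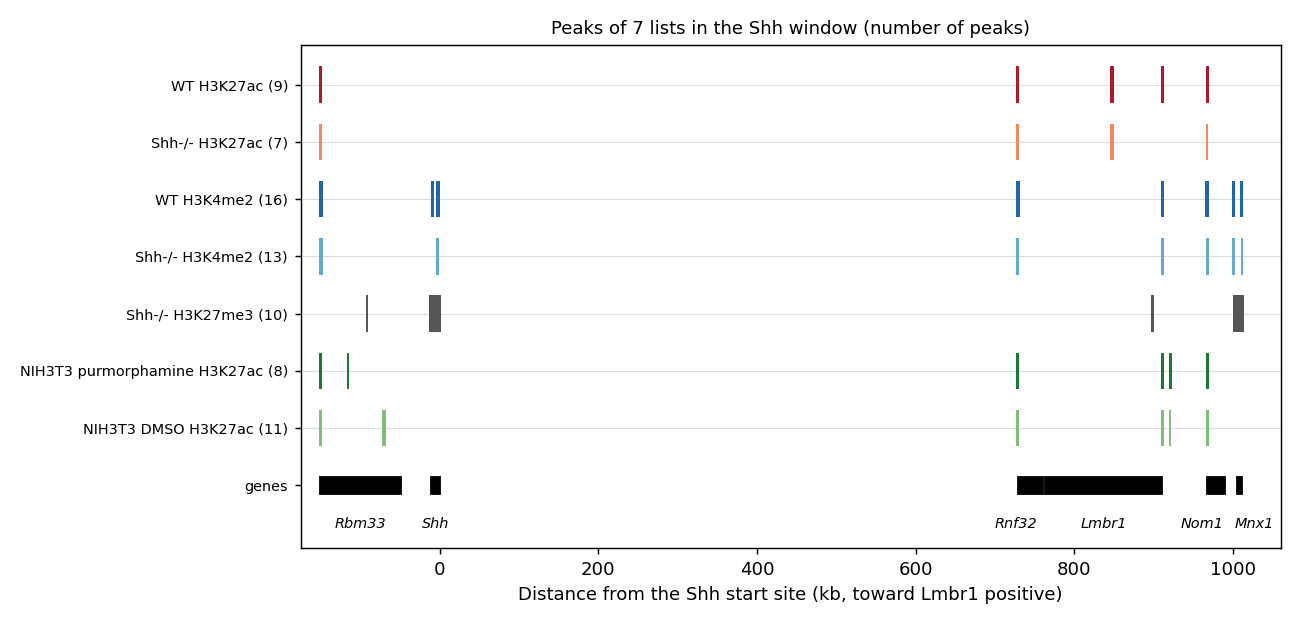
Positions of all 74 peaks in kb from the Shh start site, with 1 row for each list (number of peaks in parentheses) and the 6 protein-coding genes at the bottom; peaks under 3 kb are drawn 3 kb wide. The 726.8 kb between Shh and Rnf32 is empty in every row, and the peaks between Rnf32 and the Lmbr1 start are H3K27ac peaks of the 2 limb lists, apart from 1 H3K27me3 peak.

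Peak density in the region was below that of the genome for the H3K27ac lists. WT H3K27ac had 7.63 peaks per Mb against 18.2 over all chromosomes, and Shh-/- H3K27ac had 5.93 against 16.1. In NIH3T3 cells the values were 6.78 against 32.2 with purmorphamine and 9.32 against 33.4 with DMSO. H3K4me2 had 13.6 against 13.4 in WT and 11.0 against 14.1 in Shh-/-, and H3K27me3 had 8.47 against 7.64. H3K27me3 peaks were wider here, with a median of 1200 bp against 150 bp in the list, and they covered 2.01% of the region against 0.385% of the genome.

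Shh itself carried H3K27me3 and H3K4me2 peaks and had no H3K27ac peak in any of the 4 H3K27ac lists, within 5 kb of either end of the gene. In whole limb buds, fewer cells of a type and less signal per cell cannot be told apart. In Shh-/- limb buds, 6 H3K27me3 peaks lay between chr5:28455650 and chr5:28468399. The widest, of 5600 bp (chr5:28462000-28467599), covered exon 1 and most of intron 1, and ranked 305 of its list, within the best 1.46%, with a largest log2 ratio of ChIP to input of 4.70. The next, chr5:28458750-28461099 over intron 2, ranked 350 with the same log2 ratio of 4.70. The third, chr5:28456950-28458699 over exon 3, had a log2 ratio of 3.80, and that upstream of the start, chr5:28467750-28468399, had 3.95. The 2 peaks beyond the 3' end were short and weak, with log2 ratios of 2.65 and 2.40. The last of them, of 100 bp, had a false discovery rate (FDR) of 0.179.

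The H3K27me3 peaks covered 100.0% of exon 1, 91.5% of intron 1, 90.0% of intron 2 and 92.5% of exon 3, but 0.0% of exon 2. Exon 2 (chr5:28461322-28461583, 262 bp) lay inside the longest break between these peaks, 900 bp at chr5:28461100-28461999. Across the genome there were 168 breaks of at most 5 kb between H3K27me3 peaks that are each at least 2 kb wide, with a median of 150 bp. Of these, 6 (3.57%), that at Shh included, were at least 900 bp long. As background, exon 2 encodes part of the signalling domain and is the part of the gene that Shh null alleles of this kind lack. H3K27me3 was listed for Shh-/- alone, so the break has no counterpart on an intact allele here, and the part of the deletion in it was not tested. The peak lists give no read count over the exon, and the genotype labels cannot be checked directly from them.

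H3K4me2 peaks at Shh numbered 3 in WT and 1 in Shh-/-. The peak in intron 1 was found in both genotypes, at chr5:28464200-28464849 in WT and chr5:28464300-28465049 in Shh-/-. It ranked 4025 in WT, within the best 11.0% of the list, with a log2 ratio of 4.08. In Shh-/- it ranked 16501, within the best 42.9%, with a log2 ratio of 3.27. This is the GC-rich stretch printed above. The other 2 WT peaks had no overlapping Shh-/- peak: chr5:28466600-28467099 in exon 1, 1550 bp from the nearest Shh-/- peak, with a log2 ratio of 2.69, and chr5:28458000-28458299 in exon 3, 6000 bp away, with a log2 ratio of 2.56. Both ranked in the weaker part of the list, at 66.8% and 72.8%. Over all WT H3K4me2 peaks, 37.2% of those in rank decile 7 and 52.2% of those in decile 8 had no Shh-/- overlap. The exon 1 peak gave Shh an H3K4me2 promoter peak in WT that it lacked in Shh-/-, as for 1.27% of 21911 protein-coding genes. The Shh-/- H3K27me3 peaks overlapped all 3 WT and the 1 Shh-/- H3K4me2 peak at Shh, where 12.2% of WT and 11.4% of Shh-/- H3K4me2 peaks did so genome-wide.

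**Figure D2:**
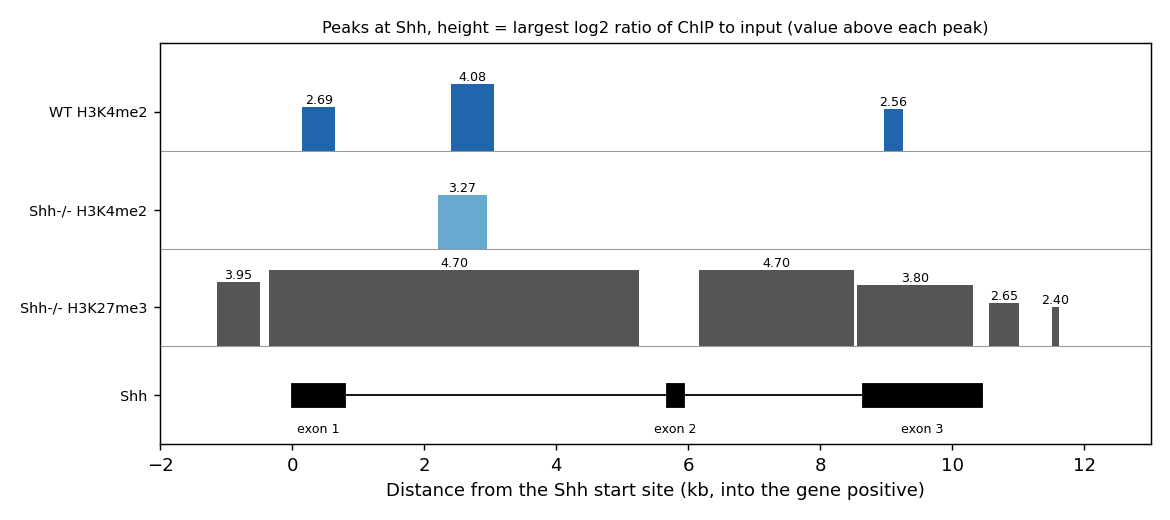
Peaks at Shh, drawn to scale against distance from the start site in kb into the gene, with bar height giving the maximum log2 ratio in each peak and exons below. WT H3K4me2 has peaks at 2.69, 4.08 and 2.56, Shh-/- H3K4me2 has 1 peak at 3.27, and the H3K27me3 peaks leave a break of 900 bp around exon 2; heights of different lists come from separate libraries and are not on a common scale.

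Measured over the gene with 5 kb on either side (20.4 kb), H3K27me3 peaks covered 53.3% of the Shh locus. Of 21938 protein-coding genes treated in the same way, 176 (0.802%) had at least this share, and the median gene had 0.0%. H3K4me2 peaks covered 7.09% in WT and 3.67% in Shh-/-. These shares were taken over the reference locus, although the Shh-/- lists come from an allele of the kind said above to lack exon 2. The 5 genes whose coverage across the 7 lists was nearest to that of Shh, by Euclidean distance in percentage points, were Mapk15 (1.11), Tbr1 (2.36), Vgll2 (2.78), Fgf8 (3.23) and Foxd4 (3.52). Fgf8, the apical ridge signal, had 56.1% H3K27me3, 5.58% WT H3K4me2 and 4.03% Shh-/- H3K4me2 coverage, with 0.0% in all 4 H3K27ac lists.

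Intron 5 of Lmbr1, a gene for a membrane protein, carried a cluster of H3K27ac peaks in the limb. The intron (chr5:29292950-29323801, 30852 bp) had 5 WT and 2 Shh-/- H3K27ac peaks, all inside chr5:29313800-29316549. The middle of this stretch was 847.9 kb from the Shh start site and 63.2 kb from that of Lmbr1. The nearest other peak of any list was 117.0 kb away toward Shh and 49.4 kb away toward the Lmbr1 start. The 5 WT peaks together covered 1150 bp, the 2 Shh-/- peaks covered 350 bp, and 300 bp were common to both.

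Peak by peak, 2 of the 5 WT peaks overlapped a Shh-/- peak. The second WT peak (chr5:29314250-29314449) had a log2 ratio of 2.83 and stood at 68.0% of its list by rank, and the Shh-/- peak over it (chr5:29314250-29314399) had 2.92 and stood at 55.7%. The fourth WT peak (chr5:29315800-29316149) had a log2 ratio of 2.84 and stood at 67.2%, and its Shh-/- partner (chr5:29315750-29315949) had 3.06 and stood at 47.3%. These shared peaks came in the middle or weaker part of both lists.

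The other 3 WT peaks had no Shh-/- overlap, although the nearest Shh-/- peak was never more than 550 bp away. The first (chr5:29313800-29313999) was the best ranked of the 5, at 29.1% of its list with a log2 ratio of 3.60, and lay 250 bp from a Shh-/- peak. In decile 3 of the WT list by rank, where it stands, 23.6% of peaks had no Shh-/- overlap. The third (chr5:29314950-29315149) had 2.81 and stood at 69.6%, 550 bp from a Shh-/- peak. The fifth (chr5:29316350-29316549) had 2.69 and stood at 79.0%, 400 bp away. Among WT peaks of their deciles, 7 and 8, 68.8% and 73.6% had no overlap in Shh-/-.

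**Figure D3:**
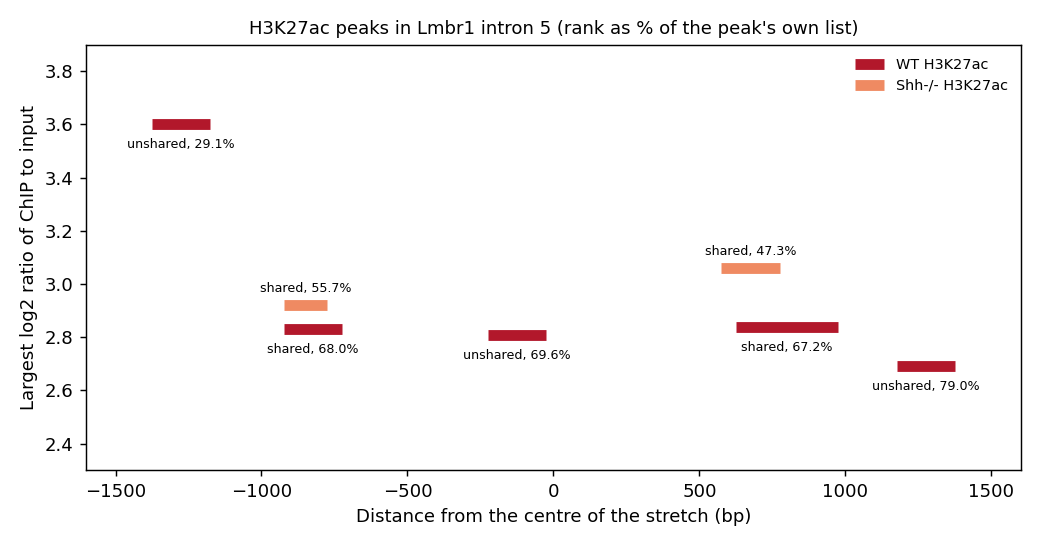
H3K27ac peaks in Lmbr1 intron 5 by distance from the centre of the 2750 bp stretch, with the largest log2 ratio of ChIP to input on the vertical axis (starting above 0) and each peak's rank as a percentage of its own list. The WT peaks run from 2.69 to 3.60 and the 2 Shh-/- peaks stand at 2.92 and 3.06; the genotypes are separate libraries with no common scale.

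This cluster had no H3K4me2 peak in either genotype, no H3K27me3 peak in Shh-/- and no H3K27ac peak in NIH3T3 cells. Over the whole lists, 32.1% of WT and 31.5% of Shh-/- H3K27ac peaks overlapped an H3K4me2 peak of the same genotype, and 38.2% and 38.3% of WT H3K27ac peaks overlapped one in NIH3T3 cells with DMSO and purmorphamine. In the central 300 bp, the 5 WT peaks had a GC content of 36.0% to 43.0% against a list median of 47.0%, and a ratio of observed to random CpG of 0.0813 to 0.234 against 0.271.

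In the whole region, 6 of 16 WT H3K4me2 peaks overlapped WT H3K27ac (48.9% over the list) and 7 of 13 Shh-/- H3K4me2 peaks overlapped Shh-/- H3K27ac (41.3%). Of the 10 H3K27me3 peaks, 3 overlapped Shh-/- H3K4me2 (20.1% over the list), at Shh and at Mnx1, and 0 overlapped Shh-/- H3K27ac (1.91%), and 0 of the 9 WT H3K27ac peaks overlapped H3K27me3 (0.725%). Apart from those of H3K4me2 with H3K27me3 at Shh and Mnx1, the overlaps lay at the starts of the other genes.

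Between conditions, 4 of 9 WT H3K27ac peaks had no overlap with the Shh-/- list (44.4%, 95% Wilson interval 18.9% to 73.3%), where the background over all WT H3K27ac peaks was 48.5%. For Shh-/- H3K27ac the count was 2 of 7 (28.6%, 8.22% to 64.1%) beside a background of 38.4%. H3K4me2 gave 5 of 16 in WT (31.2%, 14.2% to 55.6%, background 25.7%) and 2 of 13 in Shh-/- (15.4%, 4.33% to 42.2%, background 22.5%). In NIH3T3 cells 1 of 8 purmorphamine peaks (12.5%, 2.24% to 47.1%, background 36.5%) and 3 of 11 DMSO peaks (27.3%, 9.75% to 56.6%, background 41.1%) were unshared. All 6 intervals included the background share. With so few peaks per list the intervals are wide, so they cannot show whether the region stands apart from the lists. The intervals cover counting error only and treat neighbouring peaks as independent. List overlap is also a different measure from the study's own comparison on read counts. That comparison found most H3K27ac regions in both genotypes, a subset significantly reduced or lost in Shh-/-, and nearly all H3K4me2 peaks unchanged. An unshared peak is therefore not one shown to be lost.

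**Figure D4:**
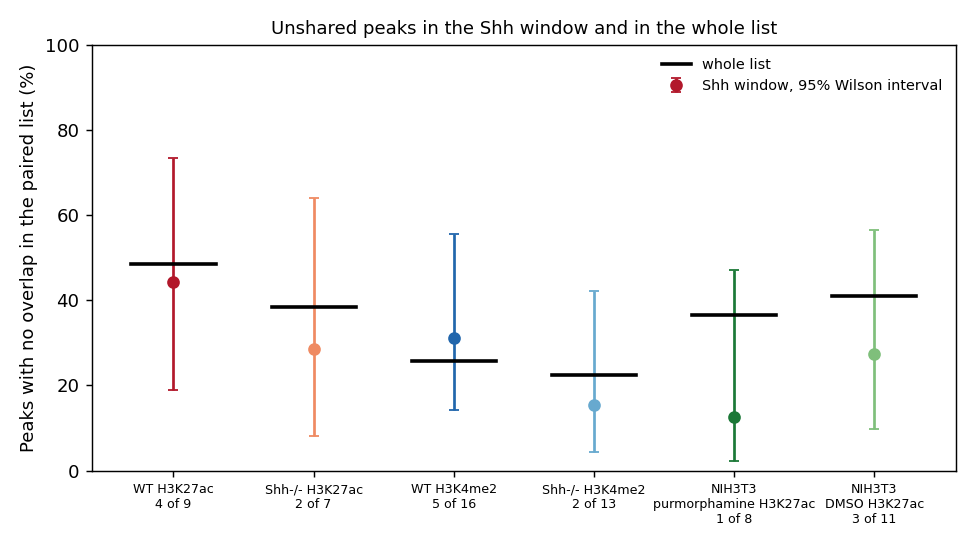
Share of peaks in the region with no overlap in the paired list (points, 95% Wilson intervals from the number of peaks) and the share over the whole list (black lines), in percent. Each interval includes its whole-list share, from 22.5% for Shh-/- H3K4me2 to 48.5% for WT H3K27ac.

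The unshared H3K27ac peak that ranked best was at the Lmbr1 start. In WT it lay at chr5:29378600-29378899, ranked 8139 (within the best 16.4%), had a log2 ratio of 4.17, and covered the start of the long RNA gene 4632411P08Rik, which runs away from Lmbr1 on the other strand. No Shh-/- H3K27ac peak lay within 55550 bp of it. In decile 2 of the WT list, where it stands, 8.23% of peaks had no Shh-/- overlap. Of 21911 protein-coding genes, 1088 (4.97%) had, like Lmbr1, an H3K27ac promoter peak in WT and none in Shh-/-.

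Other marks were present at this start in both genotypes. H3K4me2 peaks at chr5:29377600-29378349 and chr5:29378450-29379199 in WT had log2 ratios of 3.92 and 3.29. In Shh-/- those at chr5:29377450-29378399 and chr5:29378700-29379049 had 4.29 and 4.84, and the last ranked 472, within the best 1.23% of its list. NIH3T3 cells had an H3K27ac peak of 1600 bp with purmorphamine (log2 ratio 3.65) and 3 H3K27ac peaks with DMSO (2.22, 2.46 and 3.36) over the same start. The lone H3K27me3 peak of Lmbr1, in intron 1, was 100 bp wide with an FDR of 0.121.

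Rnf32, a gene for a RING finger protein, had shared marks upstream of its start in all lists but H3K27me3. H3K27ac lay at chr5:29195200-29195899 in WT (log2 ratio 3.83) and at chr5:29195250-29195749 in Shh-/- (3.98). The same stretch had H3K4me2 peaks with log2 ratios of 3.01 in WT and 3.49 in Shh-/-, and H3K27ac peaks of 3.25 with purmorphamine and 3.10 with DMSO. Downstream of the start, H3K4me2 peaks of 2.95 in WT and 3.88 in Shh-/- overlapped each other. The Shh-/- only H3K27ac peak printed above lay on them, 300 bp from the nearest WT H3K27ac peak, with a log2 ratio of 2.66 and a rank at 75.9% of its list. A WT-only H3K4me2 peak of 100 bp followed at chr5:29196750-29196849 (log2 ratio 2.33).

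The flanks of the region gave the strongest H3K27ac peaks and the widest H3K27me3 peak. At the start of Rbm33, a gene for an RNA-binding protein, H3K27ac peaks of 1650 to 2300 bp were found in all 4 H3K27ac lists, with log2 ratios of 5.75 in WT, 6.53 in Shh-/-, 5.36 with purmorphamine and 5.54 with DMSO, the best rank of the region in each. Inside Rbm33, 3 peaks between chr5:28396400 and chr5:28398199 were listed with DMSO and not with purmorphamine, at least 44500 bp from the nearest purmorphamine peak, with log2 ratios of 2.07 to 2.80. A purmorphamine peak at chr5:28351700-28351899 (2.50) was not listed with DMSO. NIH3T3 cells also had shared H3K27ac within 4632411P08Rik (chr5:29387100-29389499 with DMSO, log2 ratio 3.70), where no limb list had a peak.

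At the start of Nom1, a gene for a nucleolar protein, H3K27ac and H3K4me2 were listed in both genotypes, and H3K27ac in both NIH3T3 lists. A WT H3K4me2 peak ending at chr5:29434249 and a Shh-/- H3K4me2 peak beginning at chr5:29434250 touched without overlap and were each counted as unshared. A Shh-/- only H3K27ac peak of 100 bp (chr5:29434450-29434549, log2 ratio 2.66) lay 300 bp from the nearest WT peak. Mnx1, a homeobox gene of motor neurons and pancreas, resembled Shh in its marks: H3K27me3 peaks of 9600 bp (chr5:29467400-29476999, log2 ratio 4.71) and 4700 bp (chr5:29477050-29481749, log2 ratio 4.51, running past the end of the region) covered 96.4% of its locus, with H3K4me2 in both genotypes and H3K27ac in none of the 4 lists.

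Genes that control Shh in the limb were then read at their promoters, together with genes of Hedgehog ligands and their release, reception and response. Of 21 upstream regulators, 16 had an H3K27ac promoter peak in WT and 15 in Shh-/-, beside 43.8% and 40.9% of 21911 protein-coding genes. All 21 had H3K4me2 in both genotypes (64.0% and 63.5% of all genes), and 15 had H3K27me3 in Shh-/- (13.3%). Hand2, Hoxd10, Hoxd11 and Hoxa11, transcription factors of the posterior and distal limb, had all 3 marks. Hoxd12 and Hoxd13 had H3K27ac in WT and not in Shh-/-, and Gata6, a repressor of Shh in the anterior limb, had it in Shh-/- and not in WT, as 4.97% and 2.07% of all genes did in these directions. The ETS factors Etv4, Etv5, Ets1 and Gabpa had H3K27ac in both genotypes and in both NIH3T3 lists and no H3K27me3. The ridge signals Fgf4 and Fgf8, the retinoic acid enzyme Aldh1a2 and Hoxa13 had H3K27me3 and H3K4me2 with no limb H3K27ac. In NIH3T3 cells 10 of 21 had H3K27ac in each condition (53.1% of all genes with purmorphamine, 53.0% with DMSO).

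The 19 genes listed for Shh reception and response also include Hhat, Disp1 and Scube2, of ligand processing and release, and the other ligands Dhh and Ihh. Of these 19, 14 had an H3K27ac promoter peak in WT and 12 in Shh-/-, beside 43.8% and 40.9% of all genes. The 2 that had it in WT and not in Shh-/- were the target genes Gli1 and Grem1, and the same 2 were those with a peak under purmorphamine and none with DMSO, where the counts were 15 and 13 (53.1% and 53.0% of all genes). Of all genes, 4.97% had an H3K27ac promoter peak in WT alone and 1.5% with purmorphamine alone. None of the 19 had it with DMSO alone (1.39% of all genes). The receptor Ptch1, itself a target gene, the transducer Smo, the co-receptors Gas1, Cdon and Boc, and Gli2, Gli3 and Sufu had H3K27ac in all 4 H3K27ac lists. So did Ccnd1, Mycn, Disp1 and Hhat. A promoter peak in both genotypes does not show an unchanged level. By read counts, the study found reduced H3K27ac in Shh-/- at GLI-bound regions that regulate Ptch1. H3K4me2 was present for 19 genes in WT and 18 in Shh-/- (64.0% and 63.5% of all genes), the exception being Dhh, while no gene of the list had it in Shh-/- alone (0.79% of all genes), and H3K27me3 in Shh-/- for 7 (13.3%). Dhh and Ihh, the paralogs of Shh, had H3K27me3 and no H3K27ac, like Shh, and so did Hhip and Scube2 of the same list.

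**Figure D5:**
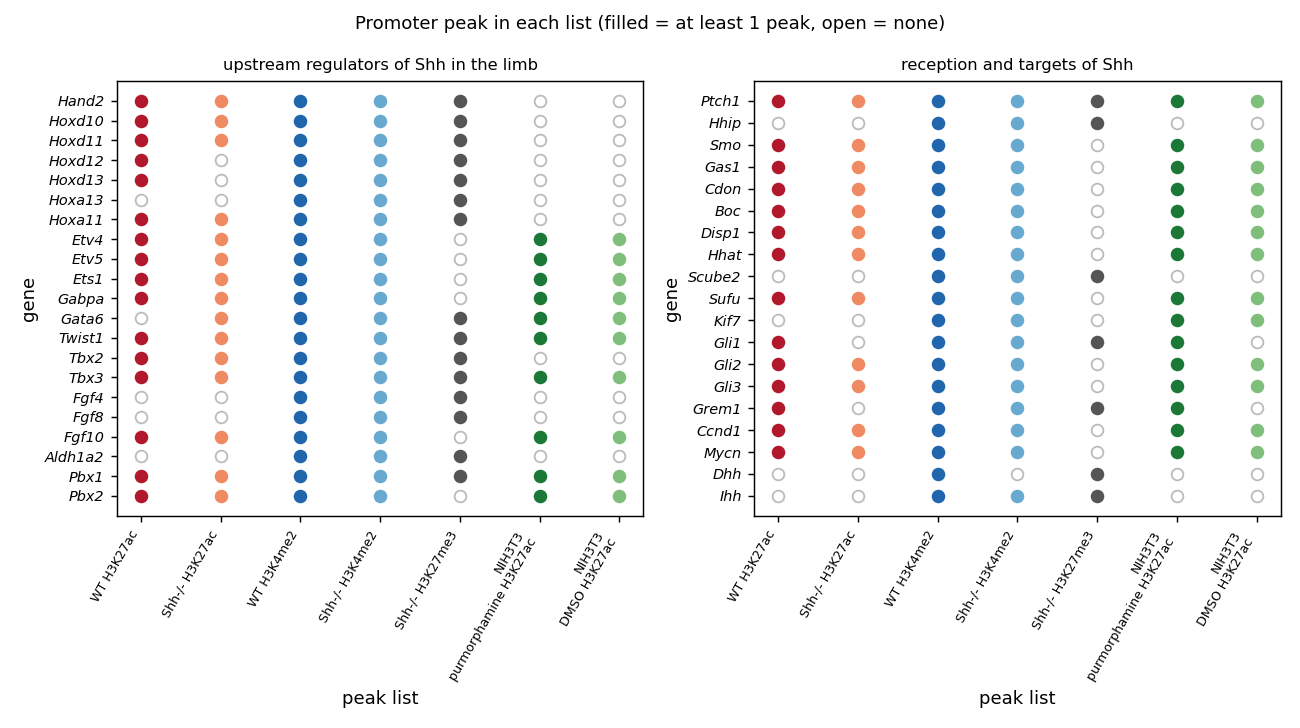
Presence of at least 1 promoter peak (filled) or none (open) in each of the 7 lists. The left panel shows 21 upstream regulators of Shh. The right panel shows the 19 genes listed for Shh reception and response, which include genes of ligand release and the ligands Dhh and Ihh. Hoxd12, Hoxd13, Gli1 and Grem1 are filled in WT H3K27ac and open in Shh-/- H3K27ac, and Gata6 is the reverse.

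Motif letters were sparse over all members. In the central 300 bp, GLI, ETS and HOX13 letters were found in 0 of 74 peaks, where each was present in under 1% of every whole list. The E-box letters were found in 1 of 9 WT H3K27ac, 1 of 7 Shh-/- H3K27ac, 2 of 16 WT H3K4me2, 0 of 13 Shh-/- H3K4me2 and 2 of 10 H3K27me3 peaks, beside 19.5%, 19.3%, 16.5%, 16.7% and 17.8% of the lists. In NIH3T3 cells they were in 2 of 8 purmorphamine and 0 of 11 DMSO peaks, beside 21.5% and 21.6%. GATA letters were found in 1 DMSO peak, inside Rbm33 at chr5:28396400-28396499, and the whole-list shares ran from 10.6% to 19.4%. Over 32851 RefSeq promoter sequences of 300 bases, 17.2% held the E-box letters, 11.2% the GATA letters, 1.10% the ETS letters, 0.253% the GLI letters and 0.131% the HOX13 letters.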

How the data were processed

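Peaks were called by the authors with CisGenome 2.1.0 on mm10, ChIP against input, with both replicates entered together. The submitters' processing notes also name Bowtie2 2.2.5 and limma. Read depth per library is unknown from these files. For each peak the authors deposited a rank, position, length, a false discovery rate (a q-value), a score that orders the rank, the peak maximum of log2 ChIP over input, and −log10 of the smallest Poisson p-value. Scores were at least 3.00 and −log10 values at least 5.00 in every list, and the highest FDR ran from 0.000805 to 0.255 between lists, so log2 ratios and ranks were read within a list. Lists of equal mark were compared by overlap of at least 1 bp.

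Coordinates are 1-based. Genes came from GENCODE vM21 basic, sequence from GRCm38, and promoter sequences from RefSeq (GRCm38). Overlap, coverage and motif functions were tested on simulated data. Intervals are 95% Wilson. Scripts used Python 3.11.15, pandas 2.3.3 and scipy 1.17.1. Members, gene lists and tests were chosen with earlier results of these data known. Items were named by rule: every peak at Shh or in Lmbr1 intron 5, the best-ranked peak and best-ranked unshared peak of each list, the widest H3K27me3 peak, the 3 best-ranked peaks per list between Shh and Rnf32 (there were none) and the 5 genes most like Shh. Further peaks at Rnf32, Rbm33, Lmbr1, Nom1 and Mnx1 were named after their values were seen, as was the break at exon 2. No difference between lists was tested, as each list pools its 2 replicates. A member of the list of genes for Shh reception and response is not reported here and was left out of its counts.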

Additional observations from a re-analysis of the deposited data

How the results depend on the processing

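No paired analysis was possible because each list pools both replicates, and replicates could not be left out for the same reason. With the better-ranked 50% of each list, the region had 4 WT H3K27ac, 4 Shh-/- H3K27ac, 5 WT H3K4me2 and 7 DMSO peaks, and unshared peaks numbered 2 for WT H3K27ac, 0 for Shh-/- H3K27ac, 0 for WT H3K4me2, 1 for Shh-/- H3K4me2, 0 for purmorphamine and 1 for DMSO. With peaks within 1 kb merged, there were 5 WT H3K27ac, 9 WT H3K4me2, 8 Shh-/- H3K4me2, 4 H3K27me3 and 6 DMSO peaks, and unshared peaks numbered 1 for WT H3K27ac (the Lmbr1 start), 0 for Shh-/- H3K27ac, 2 for WT H3K4me2, 0 for Shh-/- H3K4me2 and 1 for DMSO. From Shh to Lmbr1 alone, there were 4 Shh-/- H3K27ac, 7 WT H3K4me2, 4 Shh-/- H3K4me2, 5 H3K27me3, 2 purmorphamine and 3 DMSO peaks, with unshared counts of 1 for Shh-/- H3K27ac, 3 for WT H3K4me2, 0 for Shh-/- H3K4me2, 0 for purmorphamine and 0 for DMSO. Counting a gap of up to 500 bp as shared left 2 WT-only and 0 Shh-/- only H3K27ac peaks, and 2 WT-only and 0 Shh-/- only H3K4me2 peaks. An FDR under 0.05 left 1 Shh-/- only H3K4me2 peak. Requiring 50% of a peak to be covered gave 9 WT-only H3K4me2 peaks. The lower counts follow from fewer peaks, a smaller region or a looser rule for sharing.

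Alternatives chosen after the data were seen were a promoter of 500 bp on either side, which kept all 14 list counts within 1.5 times, and a motif search of whole peaks. The latter gave E-box letters in 2 Shh-/- H3K4me2, 4 H3K27me3 and 1 DMSO peaks, GATA letters in 2 Shh-/- H3K4me2, 3 H3K27me3 and 1 purmorphamine peaks, and HOX13 letters in 1 H3K27me3 peak, since whole peaks here are often longer than 300 bp. The other counts were within 1.5 times of those reported. The lists hold only peaks past the caller's limits, so an unlisted peak may be signal under those limits, and its size cannot be read from these files.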

Other observations

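The 5 WT H3K27ac peaks in Lmbr1 intron 5 form a run in which each peak lies under 1 kb from the next, and such runs were counted genome-wide after this had been seen. Of 28211 runs of WT H3K27ac peaks, 877 (3.11%) held at least 5 peaks. Of those 877, 480 (54.7%) had no WT H3K4me2 peak, and 313 of the 480 had no NIH3T3 H3K27ac peak either. Of these 313, 291 overlapped a Shh-/- H3K27ac peak at some point, as the run in Lmbr1 did. In Shh-/- there were 778 such runs among 25109 (3.10%), of which 395 had no H3K4me2 peak.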
